A study of Mus musculus with 2 samples.

Results

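The genes described here are 10 transcription factors that set or mark the branches of the dendritic cell (DC) and monocyte lineages: Irf8, Irf4, Batf3, Zbtb46, Id2, Tcf4, Klf4, Runx2, Tbx21 and Zeb2. They were picked by symbol as known lineage factors, and are 10 of the 26124 genes in the count matrices. Each was followed through the DC and monocyte classes of the spleen and compared between a mouse with sickle cell disease (SCD) and its control. SCD is a hemolytic anemia in which red blood cells rupture and release heme, and the comparison asks whether the DC lineage factors differ within each cell class when the spleen is exposed to it.

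The data are single-cell RNA counts from 2 spleens, 1 mouse per genotype, aged 12 to 16 weeks and untreated. The control, called wild-type here as in the labels, carried Hbatm1Paz in the homozygous and Hbbtm1Tow in the heterozygous state with the human globin transgene Tg(HBA-HBBs)41Paz in the hemizygous state, and did not sickle. The SCD mouse, a Berkeley sickle mouse, was homozygous for all of these alleles. By these labels both mice were homozygous for the alpha-globin allele and carried the human transgene, so the control is not a mouse free of it. As a check of the labels, the mouse beta-globin gene Hbb-bs was at 2293 CPM in wild-type and 20.8 CPM in SCD over all kept cells (CPM are counts per 1000000 unique molecular identifiers, UMIs, each 1 captured RNA molecule), in the labelled direction. UMIs assigned to the mouse alpha-globin gene Hba-a1 were however found in both libraries, at 914.9 and 791.6 CPM, against the label of that allele. The reason was not tested, and no gene of the human transgene is among those counted. DCs were enriched by magnetic depletion of other cells, so shares of cell classes follow that enrichment as well as the spleen. With 1 mouse per genotype no replicate error exists: no test between genotypes was possible, every interval covers counting error only, and genotype, mouse and library cannot be told apart.

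Cells were grouped without using the 10 factors. The kept cells numbered 9423 in the wild-type library and 10635 in the SCD library, with a median of 4884 and 8282 UMIs per cell. The libraries shared 88 cell barcodes, 22 of them among kept cells. Conventional DCs (cDCs) fell into cDC1 (163 wild-type and 206 SCD cells), cDC2 marked by Clec4a4 and Dtx1 (1169 and 180), a dividing group of that type (175 and 25), cDC2 marked by Cd209a and Clec10a (174 and 141) and mature DCs marked by Ccr7 and Fscn1 (502 and 62). Plasmacytoid DCs (pDCs, 655 and 344), classical monocytes (558 and 784), dividing classical monocytes (23 and 142) and non-classical monocytes (398 and 52) completed the 9 classes compared. Within pDCs, classical monocytes and the Clec4a4 type of cDC2, different sub-clusters held most cells of the 2 libraries. Those of wild-type origin were led by Iglc3 and Klk1, by Maf and Apoe, and by Mmp12 and Sash1, and those of SCD origin by Ccr9 and Siglech, by Vcan and Wfdc17, and by Ifitm1 and Mdk. Neutrophils, the main remaining class, made up 46.4% of wild-type and 67.7% of SCD cells. The summed level of 16 neutrophil markers inside pDCs was 686 CPM in wild-type and 4392 CPM in SCD. Inside mature DCs this sum was higher, at 7226 CPM in wild-type and 16740 CPM in SCD.

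As background, cDC1 present antigen to CD8+ T cells and depend on Irf8, Batf3 and Id2. The cDC2 branch, which presents antigen mainly to CD4+ T cells, uses Irf4, Klf4 and Zeb2. Zbtb46 marks cDCs as a whole, while pDCs, the producers of type I interferon, depend on Irf8 and on the E protein Tcf4, which Id2 antagonises. Several of these proteins act as partners: Batf3 binds DNA together with Irf8 or Irf4 at joint AP-1 and interferon regulatory factor elements.

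The upstream sequences of Batf3, Irf4 and Irf8 are shown because these factors bind DNA together and because Batf3 and Irf4 carried the clearest differences between the libraries. Each is the 250 bases before the annotated start in RefSeq (GRCm38.p6), written 5′ to 3′ on the strand of the gene. Batf3 lies on the plus strand at chr1:191098414-191108943 with its window at chr1:191098164-191098413, Irf4 on the plus strand at chr13:30749233-30766981 with its window at chr13:30748983-30749232, and Irf8 on the plus strand at chr8:120736358-120756694 with its window at chr8:120736108-120736357. Capitals mark GAGGAA, the core bound by ETS factors of the PU.1 kind, on either strand, so that TTCCTC in the Irf4 window is the same motif on the minus strand.
Batf3: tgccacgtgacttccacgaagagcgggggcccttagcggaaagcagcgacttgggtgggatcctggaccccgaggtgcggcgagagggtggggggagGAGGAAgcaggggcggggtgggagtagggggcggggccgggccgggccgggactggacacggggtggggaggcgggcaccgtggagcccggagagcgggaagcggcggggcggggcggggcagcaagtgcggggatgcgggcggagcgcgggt
Irf4: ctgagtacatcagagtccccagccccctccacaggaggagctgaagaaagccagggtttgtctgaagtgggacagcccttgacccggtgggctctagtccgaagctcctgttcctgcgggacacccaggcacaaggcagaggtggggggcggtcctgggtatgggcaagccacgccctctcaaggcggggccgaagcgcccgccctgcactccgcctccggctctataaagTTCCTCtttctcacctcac
Irf8: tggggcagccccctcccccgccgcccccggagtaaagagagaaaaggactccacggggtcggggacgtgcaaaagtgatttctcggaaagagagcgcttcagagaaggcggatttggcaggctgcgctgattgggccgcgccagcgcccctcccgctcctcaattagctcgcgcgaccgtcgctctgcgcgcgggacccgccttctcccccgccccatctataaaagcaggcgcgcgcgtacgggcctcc

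The Batf3 and Irf4 windows each held GAGGAA once, starting 153 and 19 bases before the gene start, and the Irf8 window held none of the motifs searched. Of the other factors, Zbtb46 lies on the minus strand at chr2:181371009-181493262, Id2 on the minus strand at chr12:25093799-25096092, Klf4 on the minus strand at chr4:55527137-55532475, Runx2 on the minus strand at chr17:44495987-44814797, Tbx21 on the minus strand at chr11:97098007-97115331 and Zeb2 on the minus strand at chr2:44983512-45117442. Upstream windows were found for 9 of the 10 factors, 13 windows in all because some have several annotated starts. On both strands, GAGGAA was found in windows of 3 factors (Batf3, Irf4 and Zeb2) and in 23.3% of all 32851 windows. The AP-1 motif TGANTCA was found in windows of 2 factors (Zbtb46 and Zeb2) and in 6.75% of all windows, and the E-box CAGGTG in windows of 3 factors (Tbx21, Zbtb46 and a start of Irf8 inside the gene) and in 17.2% of all windows. The Runx motif TGTGGT was found in the Runx2 window and in 14.0% of all windows. The core bound by interferon regulatory factors, AANNGAAA, was found in windows of 2 factors (Runx2 and Zeb2) and in 21.3% of all windows. No window of a member held the T-box AGGTGTGA (1.12% of all windows) or the KLF motif GGGTGTG (6.93%). The last letters AA of GAGGAA can also be the first of AANNGAAA, and overlaps between matches were not looked for. Like that start of Irf8, the only Zbtb46 window (chr2:181424389-181424638) lies inside the gene span given above. So do the Zeb2 windows other than the first, and the Runx2 window (chr17:44814628-44814877) overlaps its gene. These are matches of letters in short windows only. For Tcf4 no window was matched.

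Irf8, which pDCs, cDC1 and monocyte precursors require, was at 3779 CPM in wild-type and 3993 CPM in SCD pDCs (95% counting intervals 3735 to 3824 and 3921 to 4065), and at 2203 and 2286 CPM in cDC1 (2145 to 2261 and 2232 to 2342). Dividing classical monocytes followed with 484 and 529 CPM and classical monocytes with 354 and 279 CPM. Mature DCs held 201 CPM in wild-type and 378 CPM in SCD. Non-classical monocytes held 196 and 240 CPM and the Cd209a type of cDC2 149 and 147 CPM. The Clec4a4 type of cDC2 held 15.5 and 18.5 CPM, and after thinning every cell to 2000 UMIs 1.91% and 2.33% of its cells had an Irf8 UMI, against 2.40% and 2.00% of neutrophils. By level it lay above neutrophils, at 10.95 and 9.65 CPM, so no order is read from these shares. The order of classes was the same in both libraries except that mature DCs moved above classical monocytes in SCD, and in wild-type the intervals of mature DCs and non-classical monocytes overlapped. After the same thinning, 99.7% of wild-type and 100% of SCD pDCs and 95.6% and 95.4% of cDC1 had an Irf8 UMI.

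Irf8 differed most between the libraries in mature DCs, where its SCD level was 1.89 times the wild-type level (1.57 to 2.25), short of 2-fold. It was lower in SCD classical monocytes, at 0.788 times wild-type (0.744 to 0.835). In cDC1 and pDCs the ratios were 1.04 and 1.06, with intervals of 1.002 to 1.08 and 1.03 to 1.08, so Irf8 was nearly level between the libraries in the cells that held most of it.

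Batf3, the partner of Irf8 in cDC1, was highest in mature DCs, at 493 CPM in wild-type and 371 CPM in SCD. In cDC1 it was at 282 and 231 CPM and in the Clec4a4 type of cDC2 at 230 and 213 CPM. The dividing cDC2 held 215 and 113 CPM, a ratio of 0.524 (0.351 to 0.755). The Cd209a type held 155 and 97.7 CPM, a ratio of 0.630 (0.514 to 0.770) that moved to 0.274 when cells with over 5000 genes were kept. Batf3 was thus not particular to cDC1 in this spleen: after thinning, 36.5% of wild-type cDC1 and 36.5% of the wild-type Clec4a4 type had a Batf3 UMI, against 35.6% and 39.0% in SCD. pDCs held 3.18 and 1.67 CPM.

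Among the 9 classes, Batf3 had its lowest ratios in the 2 non-dividing monocyte classes. In classical monocytes it was at 87.2 CPM in wild-type (79.9 to 95) and 16.2 CPM in SCD (13.8 to 19.0), 0.186 times wild-type (0.155 to 0.223), and only 27 of 7680 expressed genes in that class had a lower ratio. The share of cells with a Batf3 UMI was 12.9% in wild-type and 3.95% in SCD after thinning, which left out 2 wild-type cells, and 49.3% and 14.3% without it. Non-classical monocytes had 28.8 CPM in wild-type and 6.0 CPM in SCD, the latter from 2 UMIs, a ratio of 0.208 (0.0248 to 0.778) that rose to 0.653 when each cell was named by its own marker score. In dividing classical monocytes no gap was seen, at 16.2 and 16.1 CPM from 8 and 50 UMIs, a ratio of 0.993 (0.467 to 2.42).

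Other values moved with Batf3 in classical monocytes. Neutrophils, which should lack Batf3, held 9.39 CPM in wild-type and 0.976 CPM in SCD, a ratio of 0.104, and 1.98% and 0.193% of thinned neutrophils had a Batf3 UMI (2.56% and 0.694% unthinned). Thinning left out 1039 wild-type and 454 SCD neutrophils, whose median depth was 2452.5 and 6959 UMIs, against 10634.5 and 11955 UMIs in classical monocytes. The summed level of 15 cDC markers in classical monocytes was 2717 CPM in wild-type and 669 CPM in SCD, with 13 of the 15 higher in wild-type. Among them Cd209a was at 62.4 and 5.62 CPM, the MHC class II chaperone Cd74 at 1542 and 347 CPM and Flt3 at 12.7 and 3.33 CPM, while Clec9a was at 2.01 and 1.04 CPM and Xcr1, Clec4a4 and Dtx1 were at no more than 1.01 CPM in either library. The sum of 10 immediate early genes in classical monocytes was 1377 CPM in wild-type and 536 CPM in SCD, with Fos at 228 and 22.0 CPM. The part of these values and of the different sub-clusters in the Batf3 value was not tested.

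Id2, an inhibitor of E proteins that is required for cDC1, was highest in mature DCs, at 1400 CPM in wild-type and 2132 CPM in SCD, a ratio of 1.52 (1.41 to 1.64). cDC1 held 1178 and 1212 CPM. The dividing cDC2 held 466 and 541 CPM, the Clec4a4 type 306 and 324 CPM, and the Cd209a type 47.6 and 73.7 CPM. The ratio in the Cd209a type, 1.55 (1.17 to 2.07), was 0.981 with called doublets removed. pDCs, in which E proteins are active, held 13.01 and 12.7 CPM, the lowest of the 9 classes in both libraries. In non-classical monocytes Id2 was at 81.2 CPM in wild-type (70.9 to 92.7) and 228 CPM in SCD (180 to 285), 2.81 times wild-type (2.13 to 3.66). That ratio was 1.42 when each cell was named by its own marker score. Red pulp macrophages held Id2 at 940 and 883 CPM. The sum of 11 red pulp macrophage markers within non-classical monocytes was 593 CPM in wild-type and 2790 CPM in SCD. Of these 11 markers, 6 were higher in wild-type and 6 were at 0 in SCD, so the SCD sum came from the remaining ones. The part of these markers in the Id2 value was not tested.

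Zbtb46, a marker of the cDC lineage, was at 143 CPM in wild-type and 106 CPM in SCD in the Clec4a4 type, 0.744 times wild-type (0.619 to 0.887). Mature DCs held 107 and 117 CPM and cDC1 104 and 106 CPM, and in SCD the intervals of these 3 classes overlapped. The Cd209a type held less, 44.5 and 31.2 CPM. In the pDC and monocyte classes it was at or below 8.10 CPM in both libraries: classical monocytes held 1.51 and 0.520 CPM and pDCs 2.22 and 0.335 CPM, from 16 UMIs and 1 UMI. Outside the 9 classes, wild-type erythroid cells held 23.1 CPM from 10 UMIs and an unnamed cluster led by Nrgn, Cnn3 and Ly6d held 31 and 10.4 CPM. The cDC classes thus held a cDC factor that was not used to make them.

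Irf4, which the cDC2 branch and the migration of mature DCs require, was at 89.5 CPM in wild-type and 77.1 CPM in SCD in the Cd209a type, and at 56.9 and 53.1 CPM in the Clec4a4 type, with ratios of 0.861 (0.675 to 1.10) and 0.934 (0.716 to 1.20). cDC1 held 3.17 and 6.61 CPM, from 8 and 19 UMIs. In these settings neither cDC2 type differed in Irf4 beyond counting error, and the intervals reach down to 0.675 and 0.716. Under the alternatives the ratio in the Cd209a type ranged from 0.320, with cells of over 5000 genes kept, to 1.03, and in the Clec4a4 type from 0.835 to 0.974.

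Irf4 was lower in SCD, with intervals under 1, in mature DCs, pDCs and both classes of classical monocytes. Mature DCs held 89.8 CPM in wild-type (79.9 to 101) and 36.6 CPM in SCD (20.5 to 60.4), 0.408 times wild-type (0.225 to 0.684), from 297 and 15 UMIs. This ratio was 0.662 when cells were weighted equally. Classical monocytes held 44.8 and 19.7 CPM, a ratio of 0.439 (0.363 to 0.531), and dividing ones 20.3 and 8.05 CPM, 0.397 (0.184 to 0.926), from 10 and 25 UMIs, too few in wild-type and too low in SCD to count as expressed (at least 10 CPM and 20 UMIs in a library). The lower cDC markers, the lower immediate early genes and the different sub-clusters given beside Batf3 hold for Irf4 in classical monocytes too. Their part was not tested. pDCs held 30.2 and 14.1 CPM, a ratio of 0.466 (0.327 to 0.651), with 27 of 8213 expressed genes lower. It was 0.503 at the finer clustering, and 12 of the 15 cDC markers were also higher in wild-type pDCs, their sum at 15961 and 13586 CPM and Cd209a among them at 425 and 247 CPM. The part of these markers and of the different pDC sub-clusters in the Irf4 value was not tested. Non-classical monocytes held 19.9 and 6.0 CPM, the latter from 2 UMIs, a ratio of 0.301 whose interval includes 1 (0.0355 to 1.14).

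Klf4, a factor of cDC2 and of monocytes, was highest in non-classical monocytes, at 723 CPM in wild-type and 573 CPM in SCD, and 73.5% and 66.7% of these cells had a UMI after thinning. Dividing classical monocytes held 405 and 357 CPM and classical monocytes 292 and 239 CPM, a ratio of 0.820 (0.770 to 0.873). Among cDCs the Cd209a type was highest with 232 and 268 CPM, the Clec4a4 type held 147 and 121 CPM, and cDC1 47.6 and 66.1 CPM. pDCs were lowest with 16.1 and 10.4 CPM. Of the 31 UMIs behind the SCD value, 10 came from 342 of the 344 cells, which were at 3.38 CPM, and the rest from the other 2 cells. The pDC ratio, 0.646 (0.420 to 0.968), lay above 1 in 6 of 11 alternative settings, up to 2.14, and that of cDC1, 1.39 (1.10 to 1.76), was 0.522 with each cell named by its own marker score.

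Zeb2, a repressor found in monocytes, pDCs and cDC2, was at 1113 CPM in wild-type and 1083 CPM in SCD classical monocytes and at 1057 and 1158 CPM in non-classical monocytes. The Cd209a type held 756 and 692 CPM and pDCs 712 and 721 CPM. The Clec4a4 type held 255 and 219 CPM, and cDC1 was lowest with 23.4 and 21.2 CPM. Mature DCs held 831 and 486 CPM, a ratio of 0.585 (0.504 to 0.675). Zeb2 also differed in neutrophils, at 156 and 29.1 CPM, where the 2 libraries lay mostly in different clusters.

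Tbx21, which encodes the T-box factor T-bet and has been used to split cDC2, was sparse. It was at 11.6 CPM in wild-type and 7.70 CPM in SCD in the Clec4a4 type, from 107 and 10 UMIs, and at 15.7 and 7.27 CPM in the dividing cDC2, from 29 and 2 UMIs. That last ratio was 0.463 (0.0535 to 1.83), past 2-fold on 2 UMIs, and 0.536 with doublets removed. The Cd209a type held 2.05 and 1.33 CPM from 4 and 2 UMIs, and cDC1 held no UMI in either library, which allows up to 1.19 CPM in wild-type and 1.04 CPM in SCD. In wild-type the Clec4a4 type and its dividing group lay above the other 7 classes with intervals that did not meet theirs. In SCD the intervals of neighbouring classes overlapped throughout, and the 2 UMIs of the dividing group were under its limit of 3 counts, 10.9 CPM.

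Tcf4, the E protein that pDCs depend on, was at 3105 CPM in wild-type (3064 to 3146) and 3237 CPM in SCD pDCs (3173 to 3302), with a UMI in 99.2% and 99.4% of thinned cells. The other 8 classes compared were at or below 194 CPM in both libraries. The Cd209a type held 194 and 145 CPM and the Clec4a4 type 177 and 119 CPM, with ratios of 0.751 (0.633 to 0.889) and 0.669 (0.564 to 0.790). The former was 1.10 with cells of over 5000 genes kept. The dividing cDC2 went the other way, at 105 and 171 CPM, a ratio of 1.62 (1.16 to 2.24). In these 25 SCD cells the summed pDC markers were also higher, at 40.6 and 113 CPM, among them Siglech at 3.79 and 39.96 CPM, and their part was not tested. Classical monocytes held 133 and 136 CPM. cDC1 held 53.5 and 73.0 CPM and mature DCs 61.1 and 39.1 CPM.

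Runx2, which supports the exit of pDCs from bone marrow, followed Tcf4 with 1013 CPM in wild-type and 1141 CPM in SCD pDCs, a ratio of 1.13 (1.08 to 1.17). Mature DCs held 154 and 103 CPM and non-classical monocytes 101.9 and 114 CPM. The Cd209a type held 69.5 and 75.1 CPM and cDC1 18.2 and 22.6 CPM. Runx2 overlaps Supt3 on the opposite strand, and whether the counting used strand is not given in the sources used here. Supt3 had 4201 UMIs in the matrices against 23566 for Runx2.

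**Figure D1:**
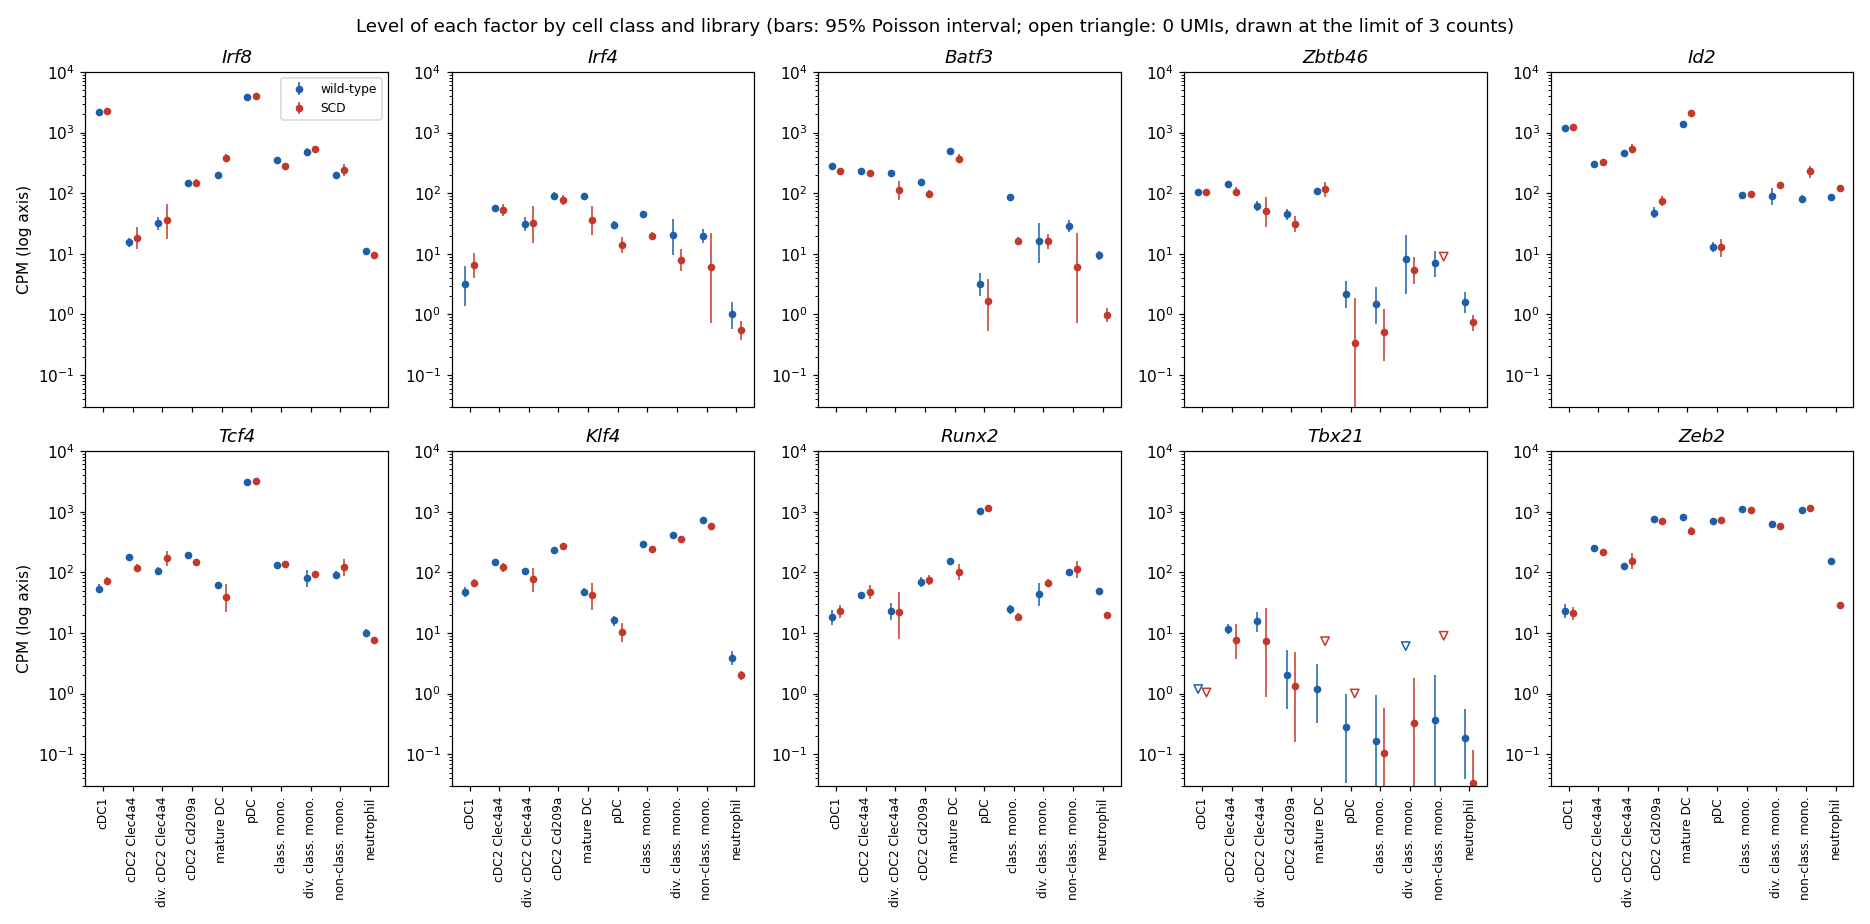
Level of each of the 10 factors (CPM of the summed UMIs of a class, log axis) in the 9 cell classes and, beside them, neutrophils, wild-type and SCD side by side, with 95% counting intervals. Open triangles mark classes with no UMI, drawn at the limit of 3 counts. Irf8 and Tcf4 stand highest in pDCs, at 3779 and 3105 CPM in wild-type, and Id2 in mature DCs, in both libraries.

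The members past 2-fold were counted in each class, beside the share of all expressed genes. A gene was counted as expressed in a class with at least 10 CPM and 20 UMIs in 1 or both libraries. In cDC1, 0 of 8 expressed members were past 2-fold, against 2.98% of all expressed genes. In the Clec4a4 type of cDC2, 0 of 10 were, against 2.29%, and in the Cd209a type 0 of 9, against 5.93%. In the dividing cDC2, 1 of 10 was (Tbx21, lower in SCD), against 12.6%. In pDCs 1 of 7 was (Irf4, lower), against 1.13% of expressed genes. In mature DCs 1 of 9 was (Irf4, lower), against 13.7%, and in dividing classical monocytes 0 of 7, against 5.44%. In classical monocytes 2 of 8 were (Batf3 and Irf4, both lower), against 3.61%. In non-classical monocytes 3 of 8 were (Id2 higher, Batf3 and Irf4 lower), against 10% of expressed genes. There Batf3 and Irf4 had 2 SCD UMIs each and counted as expressed through wild-type alone, and the Irf4 interval included 1. With at least 50 CPM the count was 0 in pDCs, 1 in classical monocytes and 1 in non-classical monocytes. In mature DCs, cDC1 and the cDC2 classes the counts are close to what the share of all genes gives for so few members. In the other classes the counts are too small to be read as a result about the members. In the Cd209a type the count was 3 with at least 1000 genes per cell and 2 with no upper limit on genes.

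**Figure D2:**
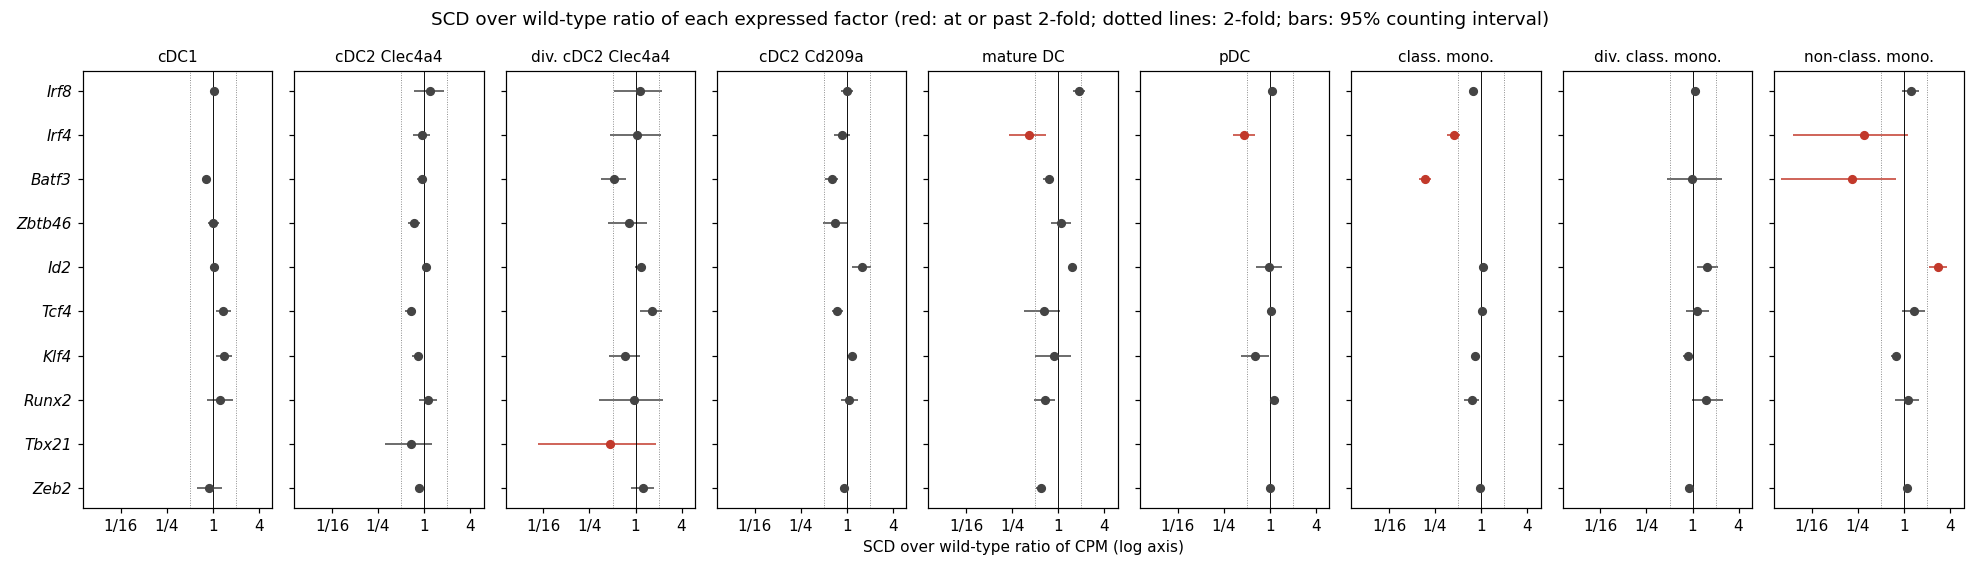
Ratio of the SCD to the wild-type level (log axis) of each expressed factor in each of the 9 classes, with dotted lines at 2-fold and its 95% counting interval, 1 library per genotype. Batf3 and Irf4 in classical monocytes, at 0.186 and 0.439, have intervals that lie under 1.

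The levels of opposing factors were set side by side within the same cells, which does not depend on the depth of a class. Irf4 made up 78.5% of the Irf4 plus Irf8 UMIs in wild-type (75.2 to 81.6) and 74.2% in SCD (64.1 to 82.7) in the Clec4a4 type, and 37.6% (33.1 to 42.1) and 34.3% (29.3 to 39.6) in the Cd209a type. The 2 cDC2 types thus differed from each other within each library, and neither differed between libraries beyond counting error. With each cell named by its own marker score the Cd209a type held 13.6% and 13.5%. In cDC1 the share was 0.144% and 0.288%, and in pDCs 0.792% and 0.351%. Mature DCs as a class held 30.9% in wild-type (28.0 to 33.9) and 8.82% in SCD (5.02 to 14.1). That class pools 2 sub-clusters in different proportions, described below. In the Irf4-high sub-cluster the share was 54.1% (49.6 to 58.5) in wild-type and 65% (40.8 to 84.6) in SCD, with intervals that met. In the Irf8-high sub-cluster Irf4 and Irf8 had 24 and 432 UMIs in wild-type, and 2 and 148 UMIs in SCD. Classical monocytes held 11.2% (9.98 to 12.6) and 6.58% (5.70 to 7.55).

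Tcf4 made up 99.6% of the Tcf4 plus Id2 UMIs of pDCs in both libraries. The Cd209a type was next among DCs, with 80.3% in wild-type (76.4 to 83.8) and 66.4% in SCD (61.0 to 71.4). The Clec4a4 type held 36.7% (35.2 to 38.1) and 26.8% (23.2 to 30.6). cDC1 held 4.35% (3.66 to 5.12) and 5.68% (4.96 to 6.48), and mature DCs 4.18% (3.63 to 4.78) and 1.80% (1.03 to 2.91). In both non-dividing cDC2 types the balance lay further toward Id2 in SCD, with intervals that did not meet. Markers moved within the Cd209a type as well, as those of the Clec4a4 type were at 360 and 143 CPM and Cd209a at 1351 and 922 CPM, and their part was not tested. In the dividing cDC2 the share was 18.4% in wild-type (16.1 to 20.9) and 24.0% in SCD (18.2 to 30.6), with intervals that met. Non-classical monocytes held 52.9% (48.3 to 57.5) and 35.0% (26.5 to 44.4), while classical monocytes held 58.7% and 58.2%. Doublet removal brought the shares of the Cd209a type to 74.8% and 69.1%, and naming each cell by its own marker score gave 89.4% and 83.4% there. With cells of over 5000 genes kept the direction turned in that type, as Tcf4 was at 1.10 and Id2 at 0.949 times wild-type.

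**Figure D3:**
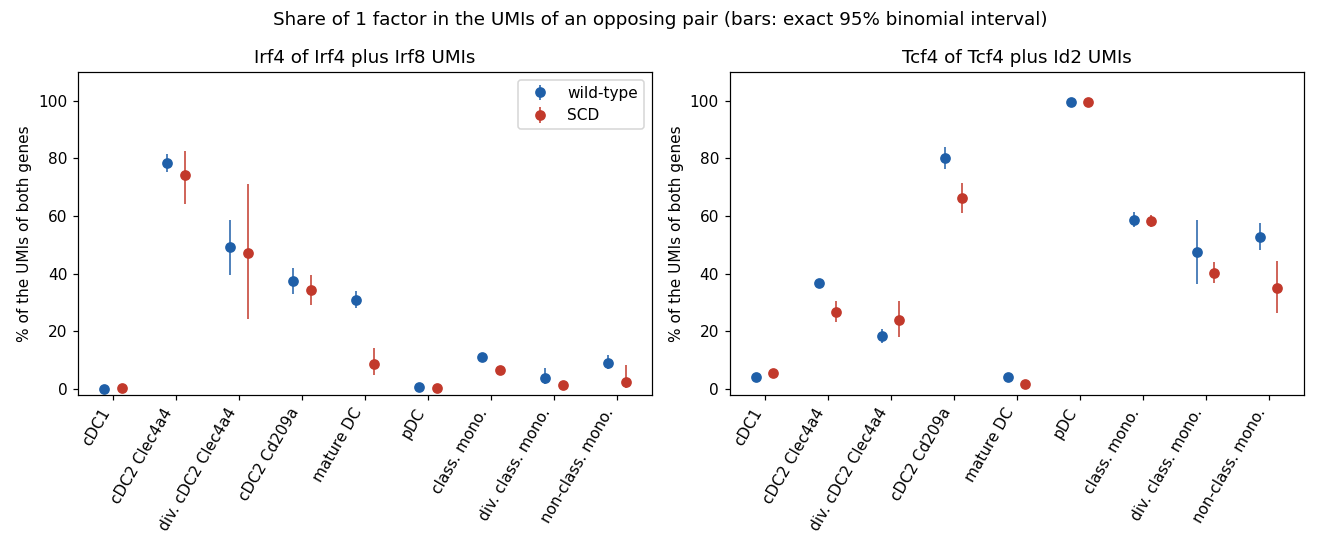
Share of Irf4 in the Irf4 plus Irf8 UMIs and of Tcf4 in the Tcf4 plus Id2 UMIs (percent) in each class and library, with exact 95% binomial intervals. Mature DCs, which pool sub-clusters in different proportions, hold 30.9% Irf4 in wild-type and 8.82% in SCD, and pDCs 99.6% Tcf4 in both.

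Mature DCs were made of 2 sub-clusters, built without the 10 factors and named here by their levels, so their difference in Irf8 and Irf4 is a description. The Irf4-high sub-cluster (399 wild-type and 32 SCD cells) held Irf8 at 95.1 CPM and Irf4 at 114 CPM over both libraries. The Irf8-high sub-cluster (103 and 30 cells) held Irf8 at 482 CPM and Irf4 at 21.6 CPM. Zeb2 was at 1042 CPM in the former and 272 CPM in the latter, Runx2 at 179 and 83.9 CPM, and Id2 at 1213 and 2041 CPM. Batf3 was near equal, at 496 and 447 CPM, as the Irf8-high level was 0.902 times the other (0.813 to 0.998). Of 11 cDC1 markers 10 were higher in the Irf8-high sub-cluster, among them Xcr1 at 26.6 against 1.59 CPM. All 8 markers of the Clec4a4 type were higher in the Irf4-high sub-cluster, among them Esam at 110 against 36.5 CPM. Of 8 markers of the Cd209a type 7 were higher there too, while Clec12a was at 6.36 against 56.5 CPM. Several of these markers were low in both sub-clusters. Rab7b was at 1.66 CPM in the Irf8-high one against 0.398 CPM. Clec4a4 was at 5.97 CPM in the Irf4-high one against 4.15 CPM. In all, 15.04% of Irf8-high cells were called doublets, all of them wild-type (103 cells with and 83 without them). Without them Irf8 was at 551 CPM, Irf4 at 18.5 CPM, Zeb2 at 170 CPM and Id2 at 2279 CPM, so the contrast was at least as wide.

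The Irf8-high sub-cluster held 29.1% of the UMIs of wild-type and 58.7% of the UMIs of SCD mature DCs. With each sub-cluster kept at its wild-type level, this shift in make-up alone gives a ratio of 1.52 for Irf8, 0.698 for Irf4, 0.746 for Zeb2 and 1.11 for Id2, where 1.89, 0.408, 0.585 and 1.52 were measured. Within the Irf8-high sub-cluster Irf8 was at 448 CPM in wild-type and 615 CPM in SCD, and Id2 at 1784 and 3069 CPM, a ratio of 1.72 (1.58 to 1.88). Without called doublets the wild-type levels were 532 CPM for Irf8 and 2038 CPM for Id2, nearer to the SCD levels. Zeb2 was there at 325 and 62.4 CPM, and at 204 CPM in wild-type without called doublets. Within the Irf4-high sub-cluster Id2 went the other way, at 1242 and 799 CPM, a ratio of 0.643 (0.537 to 0.764), while Zeb2 was at 1039 and 1088 CPM. Irf4 was at 116 and 76.9 CPM in the Irf4-high sub-cluster, 0.660 (0.347 to 1.15), and at 24.9 and 8.32 CPM in the Irf8-high one, 0.334 (0.0382 to 1.34), from 13 and 2 SCD UMIs, so that neither ratio lay off 1 beyond counting error. Irf8 also went the other way in the Irf4-high sub-cluster, at 98.9 and 41.4 CPM, a ratio of 0.418 (0.166 to 0.876), from 232 and 7 UMIs. The higher Id2 of SCD mature DCs was thus seen in the Irf8-high cells and not in the Irf4-high cells. These SCD values rest on 32 and 30 cells.

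**Figure D4:**
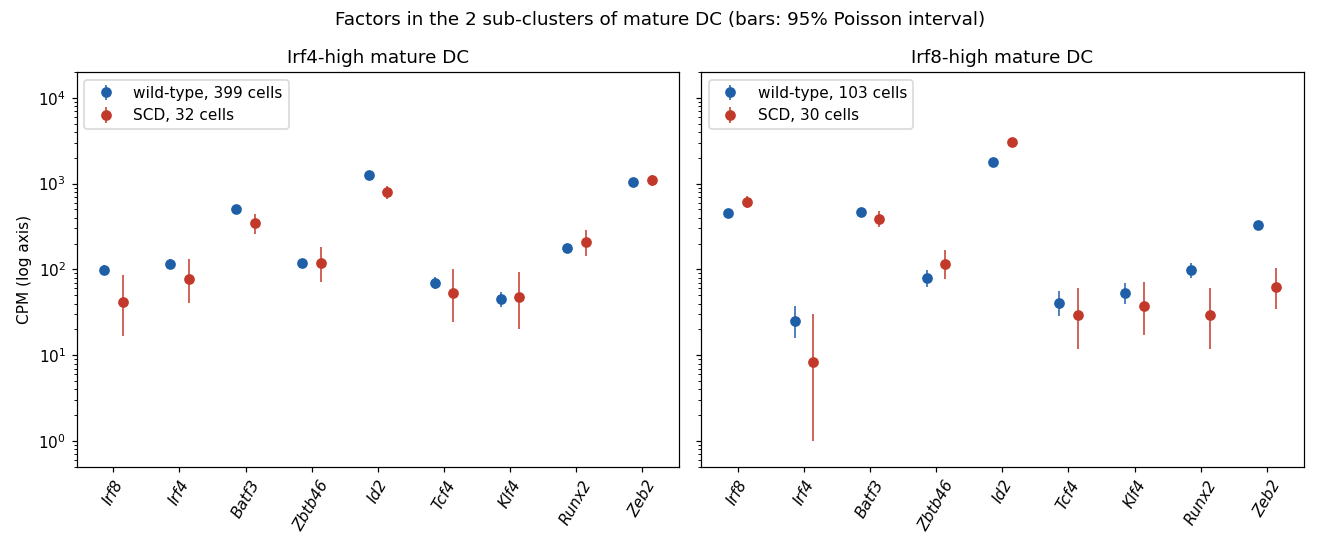
Levels (CPM, log axis) of 9 of the factors, Tbx21 left out, in the Irf4-high and the Irf8-high sub-cluster of mature DCs in wild-type and SCD, with 95% counting intervals. Zeb2 is at 325 CPM in wild-type and 62.4 CPM in SCD in the Irf8-high sub-cluster, and at 1039 and 1088 CPM in the Irf4-high one.

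Over all kept cells, every one of the 10 factors was lower in the SCD library, which is a measure of which cells were captured as much as of their RNA. Batf3 was at 115 CPM in wild-type and 18.5 CPM in SCD, a ratio of 0.161. Zbtb46 was at 43.7 and 7.61 CPM (0.174), Irf4 at 33.1 and 9.96 CPM (0.301) and Tbx21 at 2.93 and 0.291 CPM (0.0995). Irf8 was at 711 and 384 CPM (0.540), Tcf4 at 508 and 212 CPM (0.418), Id2 at 274 and 160 CPM (0.583), Klf4 at 129 and 75.2 CPM (0.583), Runx2 at 189 and 90.7 CPM (0.481) and Zeb2 at 477 and 272 CPM (0.569). If each class kept its wild-type level and only the shares of UMIs per class changed, the ratios would be 0.416 for Tcf4, 0.564 for Id2, 0.611 for Klf4, 0.524 for Runx2 and 0.486 for Irf8, close to those measured. For Batf3 (0.418), Irf4 (0.559), Zbtb46 (0.342), Tbx21 (0.273) and Zeb2 (0.740) these class shares give a smaller fall than was measured. The unnamed DC and monocyte clusters entered as a single class, so a shift among them counts as a change within it. Of these, the cluster led by Ryr3, Cd83 and Dtx1 (216 wild-type and 20 SCD cells) held Zbtb46 at 124 and 97.4 CPM. The cluster led by Igha, Mpo and Ctsg (27 and 324 cells) held it at 8.37 and 1.79 CPM. The largest source of Zbtb46 UMIs was the Clec4a4 type in wild-type, with 49.8%, and cDC1 in SCD, with 40.1%.

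**Figure D5:**
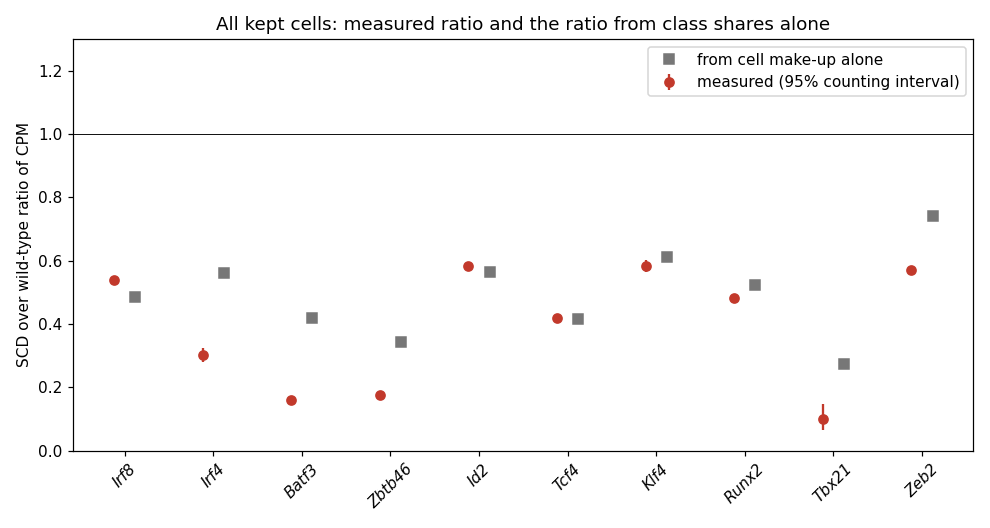
Ratio of the SCD to the wild-type level over all kept cells (linear axis), for each factor, as measured and as given by the change in class shares alone. The unnamed DC and monocyte clusters were taken as a single class. For Tcf4 the values are 0.418 and 0.416, and for Batf3 0.161 and 0.418.

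Among 35 other regulators of these lineages, 0 of 31 expressed in the Clec4a4 type (2.29% of all expressed genes), 0 of 29 in pDCs (1.13%) and 1 of 29 in cDC1 (2.98%) were past 2-fold. In the Cd209a type 5 of 32 were, 2 higher and 3 lower, against 5.93% of all expressed genes. Of these, Cebpb was at 45.5 CPM in wild-type and 104 CPM in SCD. Relb, the NF-kappaB subunit active in DC maturation, was at 122 and 38.5 CPM and Irf1 at 86.9 and 42.5 CPM. In classical monocytes 3 of 31 were past 2-fold, against 3.61%, all lower, among them Maf at 129 and 40.3 CPM and Nr4a1 at 168 and 60.05 CPM. Nr4a1 is also an immediate early gene, and the sum of 10 such genes in classical monocytes was 1377 CPM in wild-type and 536 CPM in SCD. In mature DCs 5 of 29 were past 2-fold, near the 13.7% of all expressed genes, all lower, among them Klf2 at 131 and 29.3 CPM, Spib at 159 and 61.0 CPM, Runx1 at 66.2 and 26.9 CPM and Bcl11a at 80.4 and 34.2 CPM. In non-classical monocytes 3 of 31 were past 2-fold, near the 10% of all, with Maf at 41.7 and 101.99 CPM and Relb at 57.6 and 27.0 CPM. In the dividing cDC2 5 of 30 were, near the 12.6% of all, with Nr4a1 at 30.3 and 65.4 CPM. Dividing classical monocytes had 0 of 27, against 5.44%.

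The genes whose levels were most like each factor were read over 26 profiles, the classes of both libraries, as Pearson's r of log2(CPM + 5). Zbtb46 was most like Trim7 (0.93) and Anpep (0.93), and Batf3 most like Tbc1d9 (0.92) and Anpep (0.91). Tcf4 was most like Rnf187 (0.94) and Gnas (0.93), Klf4 like Ms4a6c (0.92) and Elmo2 (0.88), and Tbx21 like Clec4a4 (0.94), a gene used to name its class, and Abcb1a (0.93). Id2 was most like Ppfibp2 (0.89) and Cd86 (0.87), Runx2 like Csf2rb2 (0.85) and Eps15 (0.84), and Irf8 like Sec24d (0.85) and Man1a2 (0.82). Irf4 was most like Tia1 (0.79) and Bin1 (0.78), and Zeb2 like Gbp3 (0.75) and Apobec1 (0.74). Among the members themselves, Batf3 and Zbtb46 were most alike (0.89), and Irf8 and Tbx21 least alike (-0.54), followed by Id2 and Tcf4 (-0.45). The profiles share libraries, depths and cell classes, so these values describe and are not tests.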

How the data were processed

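RNA was measured in 2 splenic single-cell libraries (10x 3′ chemistry), 1 mouse per genotype. The deposited matrices hold UMI counts that were not normalised, which the authors made with Cell Ranger 4.0.0 on GRCm38.p6, per the submitters' processing notes; whether counting used strand is not given in the sources used here. The libraries held 10845 (wild-type) and 13447 (SCD) cells with 97880318 and 189688217 UMIs.

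Cells were kept if they had 500 to 5000 genes, a mitochondrial share under 15% and a ribosomal share under 30%, following the study's filter with its shares read as upper limits, which left 86.9% and 79.1%. Counts were scaled with scran 1.30.0 factors, and both libraries were clustered together without batch correction (scanpy 1.11.5, Leiden, 2000 variable genes, 30 components, 15 neighbours, resolution 1), leaving out the 10 factors. Clusters were named from marker lists with a score margin of 0.05. Naming rules were set after the clusters were seen, and the names are rebuilt here, so classes may differ from the study's. Scrublet called 3.81% and 2.01% of cells doublets, which were kept, while DC and monocyte sub-clusters over 50% doublets stayed unnamed. That rule was not applied to neutrophils, among which a cluster of 142 cells had 58.5% doublets.

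UMIs were summed per class and library and given as CPM with exact Poisson intervals (95%), ratios with exact conditional binomial intervals, and shares with exact binomial intervals after thinning to 2000 UMIs. A gene with 0 UMIs in 1 library was set to a floor of 3 counts. Intervals and floors cover counting error only. The functions were tested on simulated data. The named genes were the 10 factors, the 2 genes most like each (at least 50 CPM in a profile) and up to 4 other regulators per class past 2-fold with at least 50 CPM. A regulator that this rule named is not reported here. Members and lists were chosen with earlier results of these data known. The lists of immediate early genes and the split of mature DCs were added after seeing the data. Alternatives covered the cell filters, doublets, clustering, naming, scaling, weighting, pseudocount, CPM minimum, fold and thinning depth.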

Additional observations from a re-analysis of the deposited data

Results flagged for a closer look

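Of the values in cells outside the 9 classes, 2 lay above the control library by over 2-fold with a counting interval above 1, at least 20 UMIs and 10 CPM in SCD, and few called doublets. Neither was tested, as there was 1 library per genotype. Id2 in an unnamed cluster led by Nrgn, Cnn3 and Ly6d (64 wild-type and 240 SCD cells) was at 11.6 CPM in wild-type and 34.6 CPM in SCD, a ratio of 2.98 (1.501 to 6.72), from 9 and 90 UMIs. Klf4 in the cells with over 5000 genes, which the filter had left out (295 and 1220 cells), was at 45.5 and 92.5 CPM, a ratio of 2.03 (1.89 to 2.19). With 1 sample per group no sample could be compared with others of its group. Left out by these limits were Tcf4 in erythroid cells, at a ratio of 3.51 (1.01 to 13.6) from 5 and 8 UMIs, Zbtb46 in a cluster led by Tnni1, Tdh and Aire, at 3.73 (1.18 to 12.1) from 7 and 8 UMIs, and Zbtb46 in a cluster led by Retnlg, S100a8 and S100a9, at 2.24 (1.14 to 4.61), where 47.7% of cells were called doublets.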

How the results depend on the processing

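The count of members past 2-fold was recomputed for the 9 classes under each setting. In 105 cases it stayed within 1.5 times the main count and in 28 it moved. For the Cd209a type (0 in the main settings) it was 3 with at least 1000 genes per cell, 2 with no upper limit on genes, 1 with each cell named by its own marker score and 2 at 1.5-fold. For mature DCs (1) it was 2 with no upper limit, 0 with the members among the clustering genes, 2 with own marker scores, 0 with cells weighted equally and 6 at 1.5-fold. For pDCs (1) it was 2 with no upper limit, 2 with total count normalization, 2 at 1.5-fold, and 0 at resolution 2, with a pseudocount of 5 CPM and with at least 50 CPM. For the dividing cDC2 (1) it was 3 without the mitochondrial and ribosomal filter, 2 with doublets removed, 2 with median-of-ratios scaling, 3 with cells weighted equally, 3 at 1.5-fold, and 0 with a pseudocount of 5 CPM and with at least 50 CPM. For dividing classical monocytes (0) it was 1 with the members among the clustering genes, 1 at resolution 2, 1 with no minimum CPM and 2 at 1.5-fold. With at least 50 CPM it was 1 for classical monocytes (2) and 1 for non-classical monocytes (3). The cause of these differences was not tested beyond what each setting changes by construction. cDC1 and the Clec4a4 type stayed at 0 under every setting that gave the class. No ratio past 2-fold changed direction, but smaller ones did: of 35 ratios whose interval lay off 1, 9 lay on the other side of 1 in a setting. Klf4 did in pDCs (0.646, up to 2.14) and cDC1 (1.39, 0.522), Id2 in dividing classical monocytes (1.56, down to 0.663) and the Cd209a type (1.55, down to 0.949), and Runx2 in classical monocytes (0.748, up to 1.03). In the Cd209a type Tcf4 (0.751, 1.10), Klf4 (1.16, 0.708) and Zeb2 (0.915, 1.18) did too, and Zeb2 in the Clec4a4 type (0.857, 1.04). Batf3 and Irf4 in classical monocytes stayed past 2-fold in all 9 settings that gave the class, at 0.168 to 0.229 and 0.379 to 0.477. In the Cd209a type Batf3 ranged from 0.274 to 0.793 and Irf4 from 0.320 to 1.03. Some settings did not give a class with enough cells: the Cd209a type was missing with each library clustered on its own, without the mitochondrial and ribosomal filter and with total count normalization, and classical monocytes were missing with the members among the clustering genes and with total count normalization. cDC1 was missing with no upper limit on genes, where a group of 206 wild-type and 233 SCD cells was named dividing cDC1. The dividing cDC2 and dividing classical monocytes were missing in some settings too. Shares of cells with a UMI moved with the thinning depth in 34 cases and stayed within the interval in 6. The shares of Irf4 and of Tcf4 in their pairs moved in 14 cases and stayed in 26, and ratios moved in 98 and stayed in 643. Counts of 10 UMIs or fewer, as for Tbx21 and for Irf4 and Batf3 in SCD non-classical monocytes, limit what can be read. No paired analysis was possible because the wild-type and the SCD group are single mice.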

Other observations

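Cells left unnamed also held these factors. The cluster led by Nrgn, Cnn3 and Ly6d held Irf8 at 1739 CPM in wild-type and 3357 CPM in SCD, Tcf4 at 1279 and 2165 CPM and Runx2 at 645 and 1096 CPM. In the same cluster Irf4 was at 123 and 13.1 CPM and Klf4 at 620 and 210 CPM, so that the pDC factors were higher and the cDC2 and monocyte factors lower in the SCD library. Cell type markers moved alongside: the summed pDC markers were at 1223 and 3651 CPM, those of the Cd209a type at 2684 and 1391 CPM, Siglech at 483 and 1488 CPM and Cd209a at 809.9 and 61.6 CPM, and genes of dividing cells averaged 87.8 CPM in wild-type and 275 CPM in SCD. Their part in these values was not tested. A cluster led by Igha, Mpo and Ctsg held 27 wild-type and 324 SCD cells, with Irf8 at 533 and 347 CPM, Klf4 at 497 and 326 CPM and Zeb2 at 569 and 668 CPM. A cluster led by Ryr3, Cd83 and Dtx1 (216 and 20 cells) held Batf3 at 218 and 179 CPM, Zbtb46 at 124 and 97.4 CPM and Id2 at 438 and 316 CPM. No name was given to these clusters, and no explanation was tested.

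In neutrophils Zeb2 was at 156 CPM in wild-type and 29.1 CPM in SCD, and Runx2 at 49.4 and 19.9 CPM. The share of neutrophils with a Zeb2 UMI after thinning was 28.3% and 7.94%. The sum of 10 immediate early genes in neutrophils was 2935 and 380 CPM. The 2 libraries lay mostly in different neutrophil clusters: 3466 of 4372 neutrophils in wild-type, but 232 of 7201 in SCD, fell in a cluster led by Il1b and Dusp1. The part of either in the Zeb2 value was not tested.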
